A study of Mus musculus with 9 samples.

Results

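The genes that take a cell from G1 into S phase and copy its DNA were examined in cortices of 3 mouse genotypes at HAR1984, a human accelerated region (conserved DNA that changed fast in human evolution) that the series title calls an enhancer. The set holds 41 genes, chosen by name for the known roles of their products, out of 39184 genes listed in both comparisons with the control. All 41 were found and tested in both comparisons. Their mean normalised counts over the whole experiment ran from 191 to 52716, with a median of 1324.

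RNA was taken from cortices at E16.5, when progenitors of the ventricular and subventricular zones still divide while neurons accumulate above them. Control embryos carried the mouse sequence on both alleles, Mm-HAR1984 (Mm/Mm). The knock-in, Mm-HAR1984 (Hs/Mm), had 1 human allele and 1 mouse allele and is labelled CRISPR KI, and the deletion, Mm-HAR1984 (del/del), lacked the element on both alleles and is labelled CRISPR KO. Each genotype had 3 libraries, which the design text calls biological replicates. The tissue label of deletion replicate 3 reads E16.6, and all 9 libraries have the same batch label. No label gives the sex of the embryos, their litters or the number of founder lines.

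A chromosome is copied once per cycle because loading of the helicase and its activation are kept apart in time. In G1 the origin recognition complex, Cdc6 and Cdt1 place the MCM helicase on DNA in an inactive form, while D-type cyclins start the phosphorylation of the retinoblastoma protein and free the E2F factors. E2F then drives transcription of cyclin E and of most replication genes, and kinases of S phase bring Cdc45 and GINS to the helicase so that polymerases, clamp and ligase can follow. In the embryonic cortex these transcripts mark dividing radial glia and intermediate progenitors, and neurons lose them as they leave the cycle.

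No values per library are held, so each value below is the authors' estimate over 3 libraries per group. The effect is a log2 fold change, computed as the deposited Wald statistic times its standard error (SE), and a gene is called changed when the Benjamini-Hochberg adjusted p of that statistic is under 0.05. Group levels are mean normalised counts that were worked out from the overall mean and both effects, and they carry no SD of their own. Bulk RNA cannot tell fewer cells of a type from less RNA per cell.

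Promoter sequence is shown for 5 members because E2F control is what joins most of these genes. RefSeq windows of 300 bases, 250 before and 50 after the start, were matched for 31 of the 41 members (GRCm38.p6). The genes shown had, in their role, the smallest p for the difference between deletion and knock-in among members with a window, and the 5 roles with the smallest such p are given. Letters run 5′ to 3′ on the gene's strand. Capitals mark matches, on either strand, to CCAAT or to an E2F-type word, which was any of TTTGGCGC, TTTCCCGC, TTTGGCGG, TTTCCCGG and TTTCGCGC. The windows are, in order, Rrm2 at chr12:24708004-24708303 (plus strand), Mcm10 at chr2:5012742-5013041 (minus), E2f2 at chr4:136172024-136172323 (plus), Rfc3 at chr5:151651159-151651458 (minus) and Pola1 at chrX:93632106-93632405 (minus).
Rrm2: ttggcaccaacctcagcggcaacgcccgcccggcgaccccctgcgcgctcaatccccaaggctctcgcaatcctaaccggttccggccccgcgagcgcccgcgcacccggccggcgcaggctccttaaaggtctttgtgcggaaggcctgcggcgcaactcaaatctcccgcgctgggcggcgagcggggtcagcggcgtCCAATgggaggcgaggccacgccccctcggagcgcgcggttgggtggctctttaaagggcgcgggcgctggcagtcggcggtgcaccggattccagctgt
Mcm10: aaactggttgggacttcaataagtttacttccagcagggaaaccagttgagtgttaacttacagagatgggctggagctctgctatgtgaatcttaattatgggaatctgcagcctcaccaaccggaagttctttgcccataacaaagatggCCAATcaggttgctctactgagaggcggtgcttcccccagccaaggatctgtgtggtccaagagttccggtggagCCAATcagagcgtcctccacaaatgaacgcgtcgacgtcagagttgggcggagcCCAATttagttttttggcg
E2f2: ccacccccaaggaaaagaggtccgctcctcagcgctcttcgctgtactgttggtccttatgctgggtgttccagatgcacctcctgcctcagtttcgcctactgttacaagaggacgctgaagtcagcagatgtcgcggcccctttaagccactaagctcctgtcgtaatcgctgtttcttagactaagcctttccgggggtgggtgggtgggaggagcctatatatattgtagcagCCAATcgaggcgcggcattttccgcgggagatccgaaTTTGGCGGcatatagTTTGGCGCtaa
Rfc3: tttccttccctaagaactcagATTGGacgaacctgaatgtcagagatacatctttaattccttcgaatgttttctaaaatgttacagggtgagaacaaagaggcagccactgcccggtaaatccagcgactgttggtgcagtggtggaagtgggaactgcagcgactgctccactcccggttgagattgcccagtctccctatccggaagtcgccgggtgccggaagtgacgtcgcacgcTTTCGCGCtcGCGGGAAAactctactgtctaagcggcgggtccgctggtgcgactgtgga
Pola1: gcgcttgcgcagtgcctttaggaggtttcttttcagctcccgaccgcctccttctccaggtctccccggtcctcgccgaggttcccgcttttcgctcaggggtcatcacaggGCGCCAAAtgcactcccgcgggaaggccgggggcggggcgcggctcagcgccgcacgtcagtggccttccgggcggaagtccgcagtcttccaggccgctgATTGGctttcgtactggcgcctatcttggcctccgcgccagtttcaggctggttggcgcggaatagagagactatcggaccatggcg

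The E2f2 window holds 2 E2F-type words, both after the RefSeq start, at positions 25 and 40 of that transcript. That of Rfc3 holds 2, 1 beginning 10 bases before the RefSeq start and 1, on the other strand, at position 1. In the annotation used for exon lengths, E2f2 begins at 136172394, past the end of its window, and Rfc3 begins at 151651242. For both genes the positions given hold for the RefSeq start only. Pola1 has 1 on the other strand, 138 bases before the start, and the windows of Rrm2 and Mcm10 have none of these words. The Mcm10 window ends in TTTGGCG, with which the words TTTGGCGC and TTTGGCGG begin, and the next base was not seen. CCAAT occurs in all 5, 3 times in Mcm10. Over the matched members, 13 of 31 (41.9%) had an E2F-type word, beside 3.66% of all 27025 windows. CCAAT was in 54.8% of members and 37.9% of all windows. The cell cycle homology word TTTGAA, known from promoters of G2 and mitosis genes, was in 12.9% and 18.1%. Median GC content was 58.3% in members and 52.7% in all windows. The words were searched on both strands, overlapping matches included, and no E2F-type word contains CCAAT or TTTGAA. A match describes letters and does not show that a factor binds.

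Facts of the whole experiment that bear on these genes are few. The mean normalised counts of all genes summed to 44.3 in units of 1e+06, and depth per library is unknown. The cell type label reads neural progenitors, yet the 7 projection neuron markers with values had mean normalised counts between 15296 and 70873, so transcripts of neurons were abundant in the RNA. The Y-linked transcript Ddx3y had an effect of -1.38 (SE 2.54) in the deletion and -10.89 (SE 2.68) in the knock-in, and Kdm5d had -1.48 (SE 2.85) and -11.30 (SE 3.02). Both thus lay below control well beyond their SEs in the knock-in, and within their SEs in the deletion. Sex is not labelled, so a difference in sex cannot be told apart from genotype in the knock-in comparison. Its part in the values below was not tested.

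Across all 41 genes, most values lay below control in the deletion and above control in the knock-in, but none was called in either. In the deletion 33 of 41 were below control, with a median effect of -0.096, beside 51.7% below and a median of -0.0062 among the 18952 genes tested. The effects ran from -0.28 (Ccne2) to 0.31 (Fen1), with an SD between genes of 0.12. By the Wald test 0 of the 41 were called, where 0.976% of all genes tested were, and 0 had an unadjusted p under 0.05, where 9.5% did. The authors' deposited adjusted p also called 0 members, where it called 1.03% of all genes tested. The smallest adjusted p in the deletion was that of Rfc3, at 0.571.

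In the knock-in 39 of 41 were above control, with a median effect of 0.16, beside 51.0% above and a median of 0.0039 among the 21222 genes tested. The range was -0.072 (Rfc2) to 0.55 (Fen1), with an SD between genes of 0.11. Again 0 were called by the Wald test, where 0.137% of all genes tested were. Ccnd2 and Fen1 had an unadjusted p under 0.05, where 6.92% of all genes tested did. These 2 were also the members that the authors' deposited adjusted p called, where it called 4.38% of all genes tested. Both comparisons use the same 3 control libraries, so a low or high control value would shift both effects of a gene in the same direction. No covariance between genes is held, so the counts of genes below or above control have no error of their own.

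A value that was not called does not show that the genotypes were alike. The median SE of the members was 0.16 in both comparisons, with a range from 0.094 to 0.23 in the deletion. At that SE a gene needed an effect of 0.56, or 1.47-fold, to be called in the deletion and 0.63, or 1.55-fold, in the knock-in. Smaller changes were not detectable at that SE, and the limit is lower for members with a smaller SE and higher for those with a larger one. With counting noise taken off, the SEs correspond to a coefficient of variation between libraries of 13.0% in the median member. Members ranged from 7.48% to 18.9%, and the median gene tested in both comparisons had 11.4%.

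**Figure D1:**
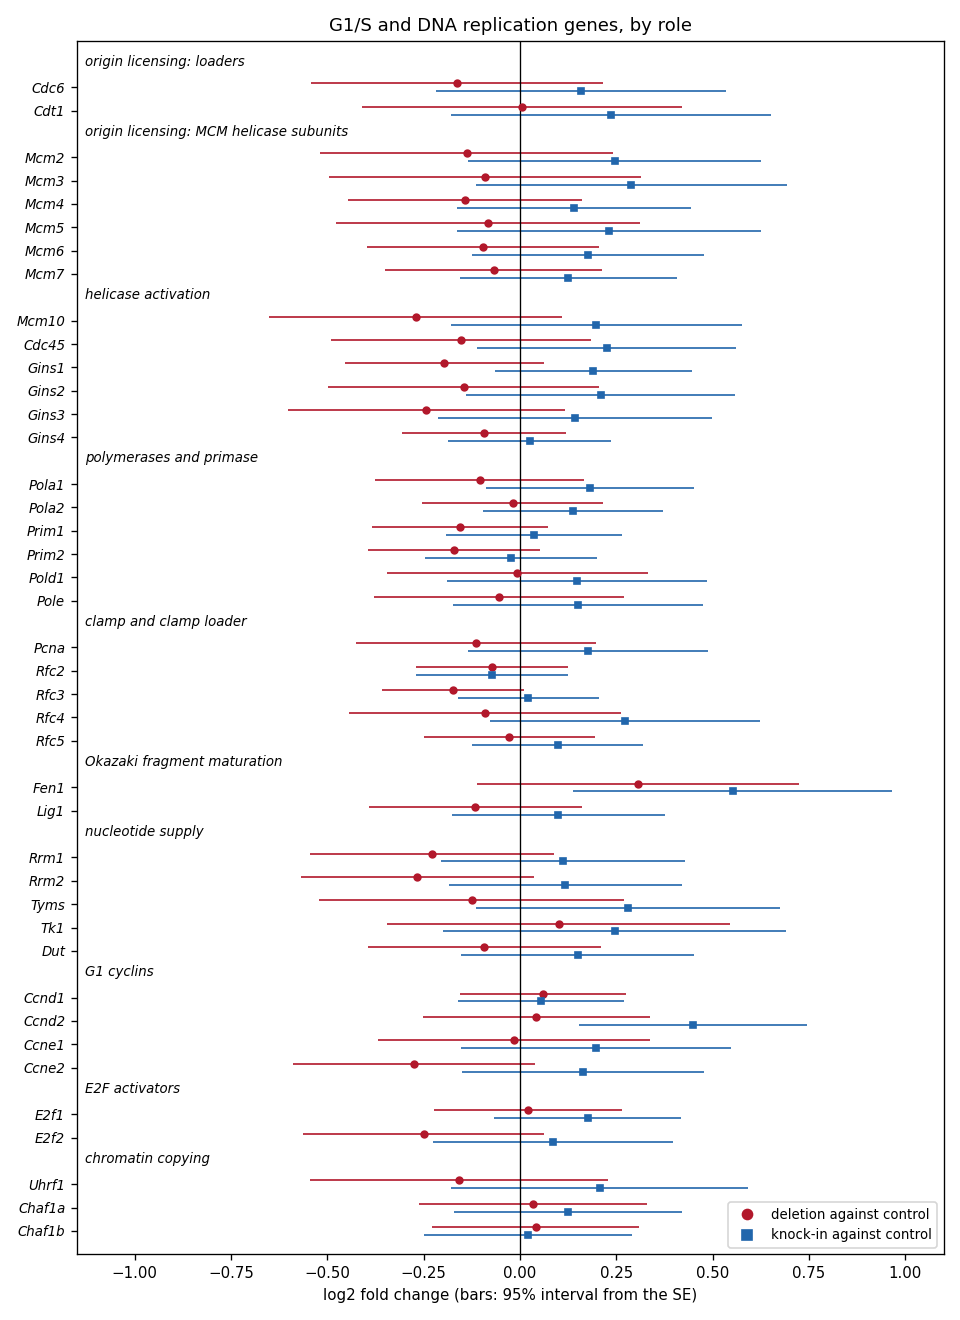
Log2 fold change (x axis) of each of the 41 genes (rows, grouped by role) in the deletion (red circles) and the knock-in (blue squares) against the same control, with 95% intervals from the SE of 3 libraries per group. All deletion intervals cross 0, and in the knock-in those of Ccnd2 and Fen1 do not.

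**Figure D2:**
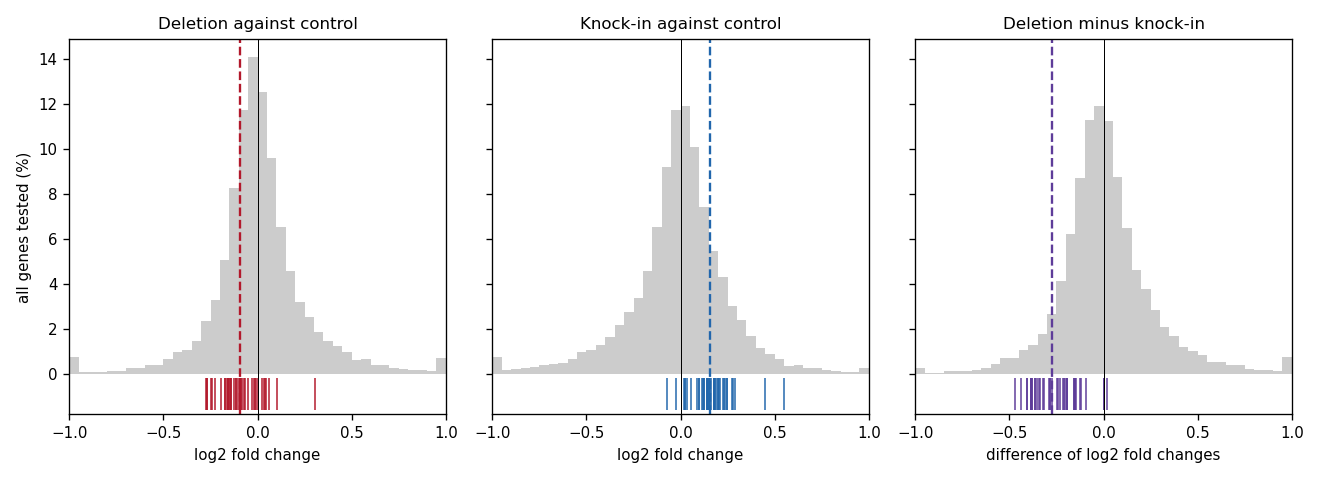
Share of all genes tested (grey bars, y axis in percent) by log2 fold change in bins of 0.05, with values beyond 1 in the end bins, in the deletion, the knock-in and their difference. Coloured ticks are the 41 genes and the dashed line their median, at -0.096, 0.16 and -0.27.

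Origin licensing came first in the order of roles. Cdc6, an ATPase that joins the origin recognition complex, had an implied level of 399 in control, 356 in deletion and 445 in knock-in embryos. Its effects were -0.16 (SE 0.19) and 0.16 (SE 0.19). Its copy Gm9430 was listed at 10.2% of its level. Cdt1, which escorts the helicase to the origin and is held in check by geminin, stood at 773, 776 and 910.3 in the same order, with effects of 0.0043 (SE 0.21) and 0.24 (SE 0.21). The loaders thus differed in the deletion, where Cdt1 was at the control level, by less than their SEs.

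The 6 subunits of the MCM ring, the motor of the replicative helicase, all lay below control in the deletion and above it in the knock-in, by amounts close to each other. Mcm2 had implied levels of 3479 in control, 3161 in deletion and 4126 in knock-in embryos. Mcm3 had 2689, 2526 and 3286. Deletion effects were -0.14 for Mcm2, -0.090 for Mcm3, -0.14 for Mcm4, -0.084 for Mcm5, -0.096 for Mcm6 and -0.068 for Mcm7. In the knock-in the effects were 0.25 for Mcm2, 0.29 for Mcm3, 0.14 for Mcm4, 0.23 for Mcm5, 0.18 for Mcm6 and 0.13 for Mcm7. Every SE was between 0.14 and 0.21, so no subunit stood apart from the others beyond these SEs. The group medians were -0.093 and 0.20, and the summed level was 21089 in control, 19672 in deletion and 24128 in knock-in embryos. Part of the Mcm7 reads may belong to Gm5487, a processed copy with 97.7% identity over 2157 aligned bases and a level of 31.4% of that of Mcm7.

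The helicase activators had the lowest median of any role in the deletion, -0.17, and a median of 0.19 in the knock-in. Mcm10, which aids the switch of the loaded helicase to its active form, had implied levels of 634 in control, 525 in deletion and 727 in knock-in embryos. Its effects were -0.27 (SE 0.19) and 0.20 (SE 0.19). Cdc45 joins MCM and GINS in the active helicase and had effects of -0.15 (SE 0.17) and 0.22 (SE 0.17). Among the 4 GINS subunits, Gins1 had implied levels of 569, 497 and 649.6, and effects of -0.20 (SE 0.13) and 0.19 (SE 0.13). Gins2 had -0.15 (SE 0.18) and 0.21 (SE 0.18), and Gins3 had -0.24 (SE 0.18) and 0.14 (SE 0.18). Gins4 lay nearest to control, at -0.094 (SE 0.11) and 0.025 (SE 0.11). Gins2 shares 67.3% of its exon bases with Gse1 on the opposite strand, and no source used here says whether the counting used strand.

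Polymerase and primase genes had small effects. Pola1, the catalytic subunit of polymerase alpha and the one X-linked member, had implied levels of 1318 in control, 1226 in deletion and 1495 in knock-in embryos, with effects of -0.10 (SE 0.14) and 0.18 (SE 0.14). Its partner Pola2 had -0.019 (SE 0.12) and 0.14 (SE 0.12). Of the primase subunits, which lay the RNA primers, Prim1 had -0.15 (SE 0.12) and 0.037 (SE 0.12), and Prim2 had -0.17 (SE 0.11) and -0.023 (SE 0.11). Pold1, the catalytic subunit of the lagging strand polymerase, had -0.0066 (SE 0.17) and 0.15 (SE 0.17). Pole, that of the leading strand, had -0.054 (SE 0.17) and 0.15 (SE 0.17).

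The sliding clamp Pcna, which tethers polymerases to DNA, had implied levels of 2249 in control, 2079 in deletion and 2541 in knock-in embryos. The effects were -0.11 (SE 0.16) and 0.18 (SE 0.16). Its count is uncertain, because the processed copy Pcna-ps2 shares 99.2% identity over 781 bases and was listed at 3443, or 150% of the Pcna count. The copy had nearly the same effects, -0.12 (SE 0.16) and 0.16 (SE 0.16), and reads of the 2 cannot be told apart here.

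The 4 clamp loader subunits lay below control in the deletion, and 3 of the 4 lay above it in the knock-in. Rfc3 had the smallest SE of all members and the smallest p in the deletion, with implied levels of 1339.6 in control, 1187 in deletion and 1359.9 in knock-in embryos. Its effects were -0.17 (SE 0.094, unadjusted p = 0.0634) and 0.022 (SE 0.094). Rfc2 was as far below control in the knock-in as in the deletion, at -0.072 (SE 0.10) and -0.072 (SE 0.10). Rfc4 had -0.091 (SE 0.18) in the deletion and 0.27 (SE 0.18) in the knock-in. Rfc5, which has the copy Gm12870 at 13.9% of its level, had -0.027 (SE 0.11) and 0.098 (SE 0.11).

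Fen1, the flap endonuclease that trims Okazaki fragments, was the least abundant member by count, at 155 in control, 192 in deletion and 227 in knock-in embryos. It was above control in both altered genotypes, by 0.31 (SE 0.21) in the deletion and 0.55 (SE 0.21, unadjusted p = 0.00921) in the knock-in, the largest member value in each. The Wald test did not call it (adjusted p = 0.459 in the knock-in). The authors' deposited table gives an adjusted p of 4.40e-04, from a deposited p of 9.21e-06 that is 1000 times smaller than the p of the deposited statistic. Fen1 shares 78.8% of its exon bases with the antisense gene Gm10143. Lig1, the ligase that seals the fragments, had -0.12 (SE 0.14) and 0.099 (SE 0.14).

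Of the enzymes that supply nucleotides, both subunits of ribonucleotide reductase were among the lowest members in the deletion. Rrm2, the subunit whose amount sets the enzyme's activity in S phase, had implied levels of 3521 in control, 2928 in deletion and 3821 in knock-in embryos. Its effects were -0.27 (SE 0.15, unadjusted p = 0.0851) and 0.12 (SE 0.15). Rrm1, the large subunit, had levels of 6301, 5379 and 6810.4, and effects of -0.23 (SE 0.16) and 0.11 (SE 0.16). Tyms, which makes thymidylate, had -0.13 (SE 0.20) and 0.28 (SE 0.20), with a copy, Tyms-ps, at 16.0% of its level. Tk1, the salvage kinase for thymidine, was above control in both, at 0.10 (SE 0.23) and 0.25 (SE 0.23). Its SE was the largest of all members. Dut, which removes dUTP, had -0.092 (SE 0.15) and 0.15 (SE 0.15).

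Ccnd2 dominated the set by abundance and gave the smallest p in the knock-in. Cyclin D2 activates Cdk4 and Cdk6, and its mRNA is known to be carried into the basal end-feet of radial glia in the mouse cortex. The gene (chr6:127125162-127152193, minus strand, mm10) had implied levels of 46572 in control, 47970.3 in deletion and 63606 in knock-in embryos. Deletion and control lay close together and the knock-in stood above both. Its effect in the knock-in was 0.45 (SE 0.15, 1.37-fold, 95% interval 0.15 to 0.75), and in the deletion 0.043 (SE 0.15). The Wald test gave an unadjusted p of 0.00284 and an adjusted p of 0.306, so the knock-in value was not called. The authors' deposited table gives an adjusted p of 2.90e-04, again from a deposited p (2.84e-06) 1000 times smaller than that of the statistic.

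The other G1 cyclins had smaller effects than Ccnd2 in the knock-in. Ccnd1, the second D-type cyclin of cortical progenitors, had 2539.7 in control, 2645 in deletion and 2639 in knock-in embryos, and effects of 0.059 (SE 0.11) and 0.055 (SE 0.11). Cyclin E activates Cdk2 at the entry into S phase. Ccne1 had -0.015 (SE 0.18) and 0.20 (SE 0.18). Ccne2, with levels of 1136, 939 and 1272, was the lowest member of all in the deletion at -0.28 (SE 0.16, unadjusted p = 0.0866) and had 0.16 (SE 0.16) in the knock-in. Ccnd1 shares 23.4% of its exon bases with the neighbouring LTO1 on the opposite strand.

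Of the activating E2F factors, E2f1 was near control in the deletion, at 0.021 (SE 0.12), and had 0.18 (SE 0.12) in the knock-in. E2f2 had -0.25 (SE 0.16) and 0.086 (SE 0.16), with implied levels of 422 in control, 355 in deletion and 449 in knock-in embryos. Whether the E2F genes differ from each other was not tested. Among genes that copy chromatin, Uhrf1, which binds hemimethylated DNA behind the fork, had -0.16 (SE 0.20) and 0.21 (SE 0.20), and its copy Gm5648 was listed at 18.6% of its level. The histone chaperone subunits stayed nearer to control. Chaf1a had 0.033 (SE 0.15) and 0.12 (SE 0.15), and Chaf1b had 0.040 (SE 0.14) and 0.020 (SE 0.14). Chaf1a shares 52.5% of its exon bases with Ubxn6.

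Read per length, as mean normalised count per kb of exon over all 9 libraries, Ccnd2 stood far above the rest at 5603. Rrm2 followed at 1235, then Mcm7 at 1117, Mcm6 at 964 and Pcna at 954. At the low end were Cdc6 at 76.5, Fen1 at 79.0, Mcm10 at 81.7 and E2f2 at 83.7. Cdc6 and E2f2 were thus among the scarcest members, while the other loader, Cdt1, stood at 261 and E2f1 at 314. Mcm6 and Mcm7 were among the most abundant, and Mcm2 was the lowest of the helicase ring at 516. Ccnd2 made up a large part of the summed count of the set. With it the sum was 115710.0 in control, 112019 in deletion and 140029 in knock-in embryos, and without it 69138, 64049 and 76423. With Ccnd2 the deletion sum thus differed from control by -3.19% and the knock-in sum by 21.0%. Without it the values were -7.36% and 10.5%.

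**Figure D3:**
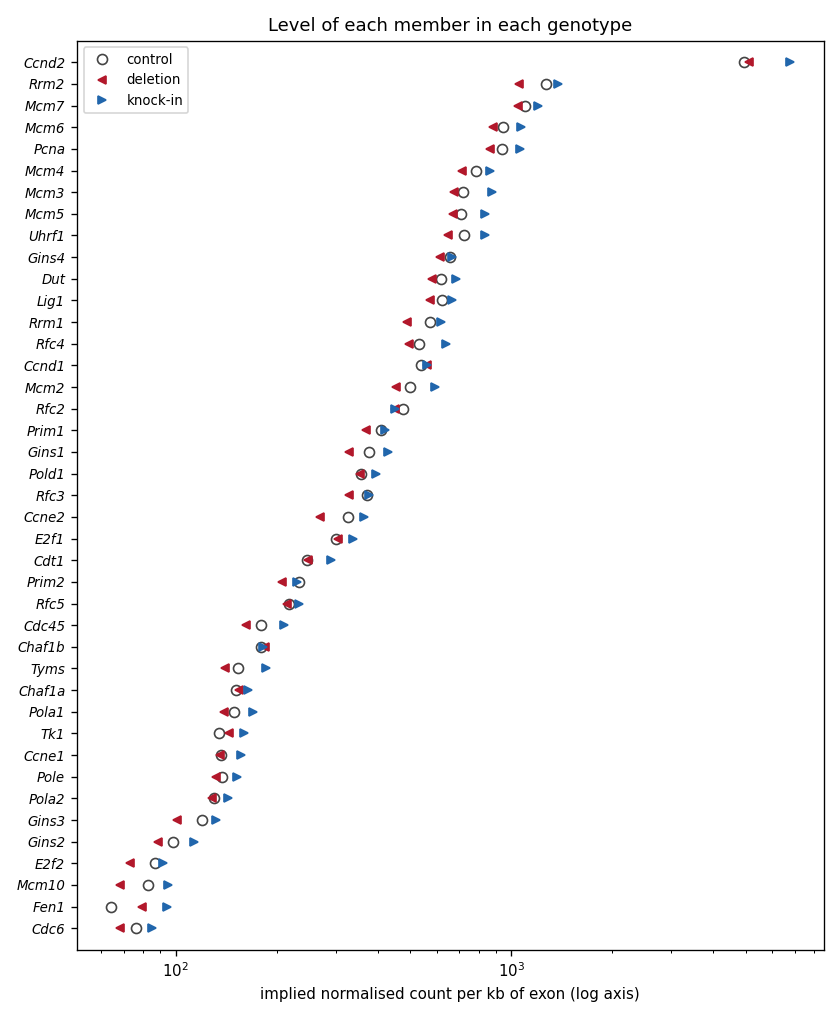
Implied mean normalised count per kb of exon (log x axis) of each of the 41 genes in control (open circles), deletion (red, pointing left) and knock-in (blue, pointing right), ordered by overall level and shown without error bars because no values per library are held. Ccnd2 stands alone at the top, with its control and deletion points together and its knock-in point to the right.

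The altered genotypes were then set against each other, which leaves the control out. The difference, deletion minus knock-in, was below 0 for 38 of 41 members with a median of -0.27, beside 52.2% and a median of -0.0087 among the 18928 genes tested in both. The exceptions were Rfc2, Ccnd1 and Chaf1b, at 0.00049, 0.0034 and 0.020. The largest differences were those of Mcm10 at -0.47 (SE 0.27), Ccne2 at -0.44 (SE 0.23), Ccnd2 at -0.41 (SE 0.21) and Tyms at -0.41 (SE 0.29). With the SEs of both comparisons summed in squares, 0 of 41 were called by the Wald test, where 0.00528% of all genes tested were. Gins1 (chr2:150905400-150931280, plus strand, mm10), at -0.39 (SE 0.19, 95% interval -0.75 to -0.024), was the 1 member with an unadjusted p under 0.05. Its Wald p was 0.0366, and 2% of all genes tested had a p under 0.05.

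That SE is an upper bound, because the shared control cancels in the difference. Under an SE that assumes equal variance in the 3 groups, 15 of 41 members had an unadjusted p under 0.05, where 10.3% of all genes tested did. They included 5 of the 6 helicase activators and 3 of the 5 nucleotide genes. Still 0 were called, where 0.0845% of all genes tested were, and the smallest adjusted p was 0.229, for Gins1. Ccne2 and Ccnd2 had adjusted p of 0.291 and 0.292 on that scale. By role the median difference was -0.38 for helicase activation, -0.34 for nucleotide supply, -0.31 for the G1 cyclins and -0.30 for the MCM subunits. It was -0.17 for polymerases and primase and -0.092 for chromatin copying, and the differences between roles were not tested.

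**Figure D4:**
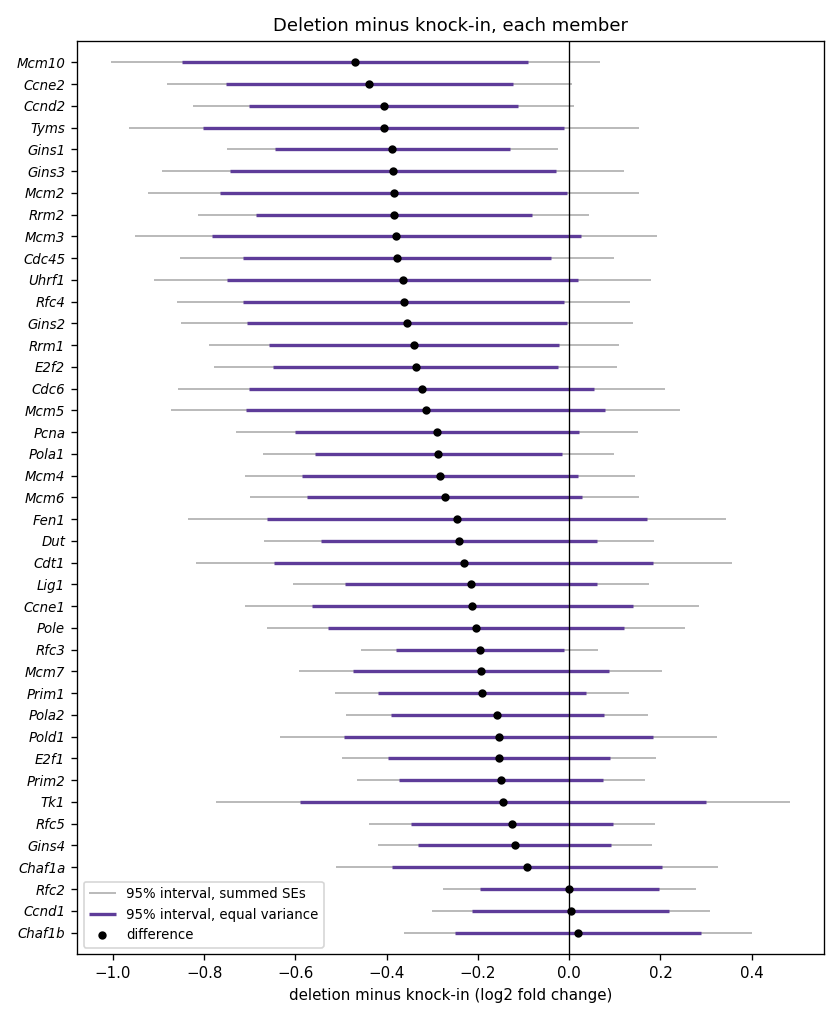
Deletion minus knock-in log2 fold change (x axis) of each of the 41 genes, ordered by size, with 95% intervals from the summed SEs (grey) and from the SE under equal variance (purple). The grey interval excludes 0 for Gins1 alone, and 38 of 41 points lie left of 0.

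The rest of the pathway was described from 8 lists of 70 genes, all with values. In the deletion 60 of 70 lay below control (median -0.11), and in the knock-in 58 lay above (median 0.098). By the Wald test 0 were called in either comparison or in the difference, with unadjusted p under 0.05 for 4, 1 and 3, where 9.5%, 6.92% and 2% of all genes tested had one. The genes named here were among the 2 with the smallest p of the difference in their list. Of the 6 origin recognition genes, which mark where MCM is loaded, 6 were below control in the deletion, but the knock-in median was -0.022 with 2 above control, and Orc2 differed by -0.31 (SE 0.18) and Orc1 by -0.32 (SE 0.27). All 10 genes of licensing control and firing were below control in the deletion and 9 above in the knock-in. The difference was -0.40 (SE 0.20) for Wdhd1, which ties polymerase alpha to the helicase, and -0.32 (SE 0.17) for Dbf4, the activator of the Cdc7 kinase.

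Among the 11 E2F and retinoblastoma family genes, 11 were below control in the deletion and 8 above in the knock-in. E2f5, a repressor that acts with the retinoblastoma relatives, differed by -0.42 (SE 0.17, unadjusted p = 0.0146), and the repressor E2f6 by -0.27 (SE 0.12, unadjusted p = 0.0262). Of the 10 G1 kinases, cyclins and inhibitors, 8 were below control in the deletion. Cdkn1c, the inhibitor p57 that accompanies exit from the cycle, went the other way, at 0.57 (SE 0.17, adjusted p = 0.0692) in the deletion and 0.14 (SE 0.17) in the knock-in, just short of the threshold in the deletion. Ccna2, the cyclin of S phase and G2, differed by -0.47 (SE 0.28). In fork protection the largest difference was that of Clspn, a checkpoint mediator, at -0.43 (SE 0.30), and Rpa3, a subunit of the single-strand binding protein, had -0.28 (SE 0.23). Hells, a chromatin remodeller, differed by -0.41 (SE 0.27) and the histone chaperone Asf1a by -0.32 (SE 0.17). The nucleoside kinase Dck had -0.20 (SE 0.14). The clamp unloader Atad5 had -0.22 (SE 0.15) and the polymerase epsilon subunit Pole3 -0.18 (SE 0.15).

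Other marker lists also lay above or below control in the altered genotypes, and their part in the members' values was not tested. The 12 G2 and mitosis genes were all below control in the deletion and all above it in the knock-in, with medians of -0.31 and 0.21 and a median difference of -0.47. Their summed level was 47766 in control, 38617 in deletion and 54463 in knock-in embryos. None was called by the Wald test in either comparison, where 0.976% and 0.137% of all genes tested were. An unadjusted p under 0.05 was found for 2 and 0, where 9.5% and 6.92% of all genes tested had one. The 9 radial glia markers had medians of -0.15 and 0.25, with 6 below control in the deletion and 9 above in the knock-in, and the sum went from 79018 to 71928 and 90084. The 7 intermediate progenitor markers had medians of -0.16 and 0.24, with sums of 25908, 23896 and 31804. The medians of both progenitor lists thus lay on the same side of control as most members in each comparison. By the Wald test 0 of their genes were called, where 0.976% and 0.137% of all genes tested were.

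Neurons, interneurons, meninges and vessels did not show that order. The 7 projection neuron markers summed to 276126 in control, 303623 in deletion and 261170.0 in knock-in embryos. The 7 markers of ganglionic eminence progenitors and interneurons were below control in both, with sums of 17960.4, 11168 and 12407, and 5 fell in the deletion by the Wald test. Meningeal markers were 7 of 7 above control in both, with sums of 25846, 48360.0 and 39918, and 3 rose in the deletion. Endothelial and pericyte markers were also 7 of 7 above control in both (14443, 19783 and 17413), with 1 rise in the deletion. These calls stand beside 0.976% of all genes tested that the Wald test called in the deletion. Erythroid markers had the order of the progenitor lists, with sums of 128956, 108396 and 150661. Under the equal variance SE, 2 of the 7 erythroid genes were called in the difference, where 0 members and 0.0845% of all genes tested were. By that Wald test these were Hbb-bt at -0.51 (adjusted p = 0.0133) and Hba-a1 at -0.51 (adjusted p = 0.0499). The embryonic globin gene Hbb-y had 2.41 (SE 0.83, adjusted p = 0.335) in the knock-in. Microglial markers summed to 2607, 3541 and 3197, and oligodendrocyte lineage markers to 3339, 3811 and 3227. In the oligodendrocyte list 3 of 4 markers lay below control in both genotypes (medians -0.53 and -0.83), and the higher sum in the deletion came from the fourth, Pdgfra, at 0.54 (SE 0.19). No listed marker with values was at 0.

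**Figure D5:**
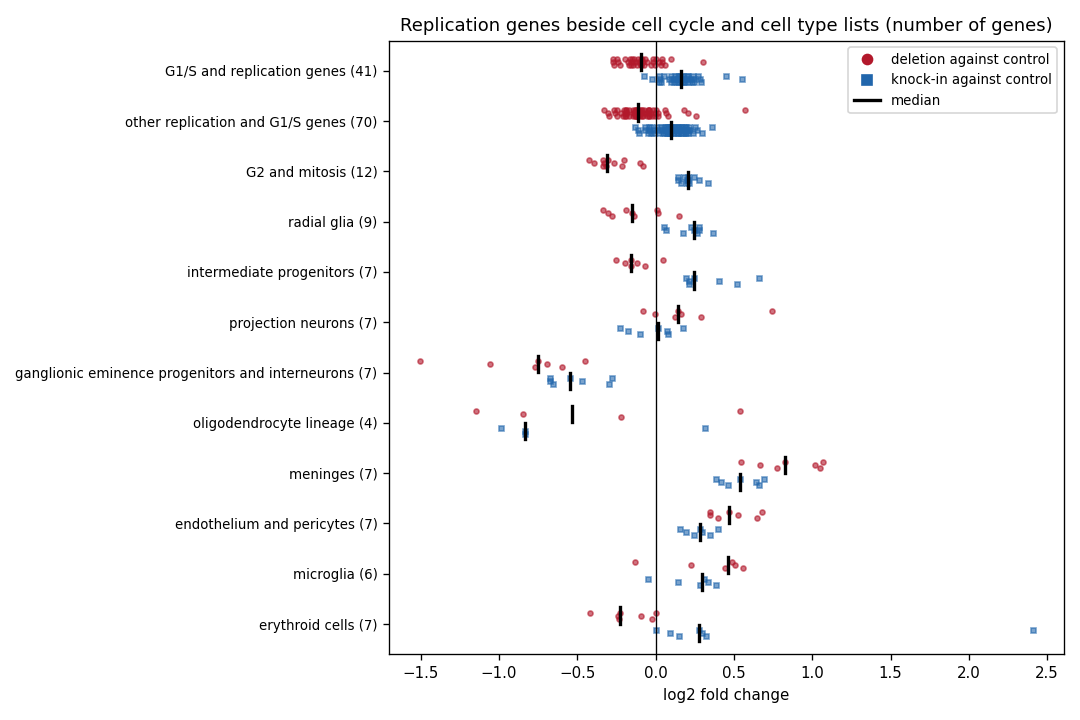
Log2 fold change against control (x axis) of every gene in the replication set, the other genes of its pathway and the marker lists (rows, number of genes in brackets), in the deletion (red circles) and the knock-in (blue squares), with black bars at the medians. Medians of the replication, mitosis and progenitor lists lie left of 0 in the deletion and right of it in the knock-in, while interneuron markers lie left of 0 and meningeal markers right of 0 in both.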

How the data were processed

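RNA was measured by sequencing in 9 cortex libraries, 3 per genotype. Per the labels' protocols, mRNA was captured from 50 ng of total RNA per library. STAR 2.7.9a, Bowtie2 2.4.4, cutadapt and the builds mm9 and mm10 are listed, without roles, in the submitters' processing notes. How reads were counted, and with which annotation, is not given in the sources used.

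Per the file headers, the authors deposited for each comparison a DESeq2 log2 fold change with its SE, a Wald score, a p-value and its adjusted form. BaseMean, the signal column that the authors deposited, is the mean of normalised counts across samples, identical between the tables for the 39184 genes they share. Columns headed FPKM were deposited under library names but hold other values: all 235530 and 242196 equal baseMean times draws of R's normal generator (mean 1, SD 0.1, seed 42) within 1e-09, so they were not used.

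Effects were the deposited statistic times its SE, with a 2-sided normal p and Benjamini-Hochberg adjustment over the 18952 and 21222 genes with a deposited adjusted p. The deposited p disagreed with the statistic for 4 deletion genes and 930 knock-in genes. For 923 of the 930 it was 1000 times smaller, and 2 of those were members. Group levels assume that baseMean is the mean over all 9 libraries. Coefficients of variation leave out counting noise and assume size factors near 1. The difference used the root of the summed squared SEs over 18928 genes. Copies were processed pseudogenes found by blastn 2.17.0 (at least 90% identity over 200 bases) in GENCODE transcripts of mm10. The members, lists and tests were chosen with earlier results of these data known. Every member is named. Other pathway genes are named when called or among the 2 smallest p of the difference in their list. A gene chosen by this rule is not reported here. 1 listed marker was not analysed here. The steps were tested on simulated data. Alternatives were thresholds of 0.1 and 0.01, adjustment over every gene, a baseMean of at least 50, centring and the deposited adjusted p. Further ones were the deposited log2 fold change, an equal variance SE, a weighted mean and leaving out members that may share reads. Work was done in R 4.3.3 and in Python 3.11.15 (matplotlib 3.10.9, scipy 1.17.1, pandas 2.3.3, numpy 2.4.6).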

Additional observations from a re-analysis of the deposited data

How the results depend on the processing

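Of the counts and medians, 32 alternatives kept the direction and side of the threshold, and 1 did not: by the authors' deposited adjusted p, 2 members were called in the knock-in instead of 0. These were Ccnd2 and Fen1, whose adjusted p in the knock-in ran over the alternatives from 2.90e-04 to 0.579 and from 4.40e-04 to 0.871. The low end comes from deposited p-values 1000 times smaller than those of the deposited statistic. For single members, 736 alternatives left direction and side of the threshold unchanged and 2, those just given, did not. Many of these outcomes were fixed beforehand. Only centring altered a single member's effect, so the other alternatives could not change its direction. By the Wald test the smallest member adjusted p was 0.571 in the deletion, 0.306 in the knock-in and 0.99978 in the difference. Thresholds of 0.1 and 0.01 could therefore call no member. The baseMean limit removed none, as the lowest member had 191. The same holds for the thresholds and the limit among the 32 alternatives above. It also holds there for medians of the deposited log2 fold changes, which disagreed with the statistic times its SE for 0 members. The median effect lay between -0.096 and -0.090 in the deletion, between 0.13 and 0.16 in the knock-in, and between -0.27 and -0.22 for the difference. A further choice, made after seeing the data, left out the 10 members that may share reads with a copy or an overlapping gene. It gave medians of -0.096, 0.15 and -0.27 over the other 31.

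No paired analysis was possible because no values per library are held, and for the same reason libraries were not left out in turn. With 3 libraries per group and these SEs, changes under 1.47-fold in the deletion and 1.55-fold in the knock-in could not be called in the median member.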
